A study of Homo sapiens with 8 samples.

Results

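The genes described here are 37 named genes of glycolysis and the response to low oxygen, chosen by symbol, out of 60558 genes listed for each library. They comprise 3 transporters of glucose and lactate, 17 enzymes from hexokinase to lactate dehydrogenase, 3 regulators of glycolytic flux, 4 genes of the oxygen-sensing switch and 10 further hypoxia-response genes. All 37 were in the files, and 35 passed the filter for testing (1 FPKM or more in 2 or more libraries, where FPKM are sequenced fragments scaled to transcript length and library size), as did 14206 genes in all. CA9, a carbonic anhydrase of the cell surface, was listed at 0 in all 8 libraries, and ANKRD37, a hypoxia-induced ankyrin repeat gene, ranged from 0.301 to 1.09 FPKM and was not tested.

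RNA-seq was performed on 2D human intestinal epithelial cells (hIECs) differentiated from H9, a human embryonic stem cell line, in medium that held valproic acid and the Wnt inhibitor Wnt-C59 in all groups. There were 2 libraries in each of 4 groups: untreated normal hIECs, normal hIECs exposed to particulate matter 10 (PM10), hIECs inflamed with cytokines, and inflamed hIECs that also received PM10. The labels give a treatment time of 10 days to every library. Inflamed hIECs were made with the cytokines interferon gamma and tumor necrosis factor alpha, and PM10, a reference dust, was added during the later part of that time. All libraries come from 1 cell line, and no source used here says that the 2 libraries of a group were separate cultures, so p-values measure the spread between these samples, which may be technical.

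Before the glycolytic genes, the libraries were checked against markers of the labelled cell type. Of 8 epithelial markers, EPCAM, CDH1, CDX2, VIL1 and CLDN4 did not reach 1 FPKM in any library, and KRT8 was the most abundant. The summed level of the 8 was 641 and 652 FPKM in normal hIECs, 598 and 636 with PM10, 352 and 347 with cytokines, and 305 and 287 with both. Of 8 markers of mature enterocytes 7 were listed at 0 throughout and ANPEP alone had values, while all 5 secretory markers (MUC2, TFF3, CHGA, LYZ and SPINK4) were at 0. The 8 mesenchymal markers, led by VIM, summed to between 2573 and 3499 FPKM, and the 6 neuronal markers, led by STMN2, to between 116 and 225 FPKM. No endothelial marker reached 1 FPKM, and of 5 leukocyte markers CD68 alone did. The labelled identity therefore had little marker support in these files, and the cells are called hIECs as the study calls them. In such bulk samples a change in the share of a cell type and a change in RNA per cell cannot be told apart. The cytokine treatment itself was visible, since the response genes CXCL10, IDO1, GBP1, IRF1 and ICAM1 rose in both cytokine comparisons.

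Glycolysis turns glucose into pyruvate, and lactate dehydrogenase together with the monocarboxylate transporter SLC16A3 disposes of the excess as lactate. Under low oxygen the alpha subunits encoded by HIF1A and EPAS1 escape hydroxylation by the EGLN enzymes and degradation, pair with ARNT and raise many glycolytic genes through a short DNA element, the hypoxia response element (HRE). The intestinal epithelium lives next to a nearly anoxic lumen, and this pathway is known there for its part in barrier maintenance.

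Promoters are shown for 4 members to make the HRE core visible beside the expression values. ADM and PKM were chosen as the hypoxia-response gene and the enzyme with the largest rise with cytokines, and PGK1 and BNIP3 as an enzyme and a hypoxia-response gene with several cores. The sequences are from RefSeq on GRCh38.p14, from 250 bases before to 50 after the start, written 5′ to 3′ on the strand of the gene. Capitals mark the core ACGTG or GCGTG on either strand, which reads CACGT or CACGC when it lies on the opposite strand. They lie at chr11:10304823-10305122 on the plus strand, chr15:72231141-72231440 on the minus strand, chrX:78103998-78104297 on the plus strand and chr10:131981874-131982173 on the minus strand.
ADM: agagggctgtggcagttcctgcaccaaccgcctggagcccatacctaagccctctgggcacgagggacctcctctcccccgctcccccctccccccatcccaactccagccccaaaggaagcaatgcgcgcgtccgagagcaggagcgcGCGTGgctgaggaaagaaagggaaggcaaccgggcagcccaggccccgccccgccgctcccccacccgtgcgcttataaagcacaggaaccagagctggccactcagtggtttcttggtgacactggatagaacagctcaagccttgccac
PKM: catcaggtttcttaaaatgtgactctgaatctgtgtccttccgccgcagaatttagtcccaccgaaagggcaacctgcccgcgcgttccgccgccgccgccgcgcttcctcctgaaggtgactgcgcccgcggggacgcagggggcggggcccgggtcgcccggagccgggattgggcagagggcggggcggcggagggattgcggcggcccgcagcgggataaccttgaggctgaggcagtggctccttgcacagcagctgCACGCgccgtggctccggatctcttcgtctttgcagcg
PGK1: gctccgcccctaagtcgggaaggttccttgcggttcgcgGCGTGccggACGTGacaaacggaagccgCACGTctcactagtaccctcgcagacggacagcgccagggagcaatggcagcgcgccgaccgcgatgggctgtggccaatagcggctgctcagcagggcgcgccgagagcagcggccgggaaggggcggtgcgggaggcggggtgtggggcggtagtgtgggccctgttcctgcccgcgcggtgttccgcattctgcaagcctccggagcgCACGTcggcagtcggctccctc
BNIP3: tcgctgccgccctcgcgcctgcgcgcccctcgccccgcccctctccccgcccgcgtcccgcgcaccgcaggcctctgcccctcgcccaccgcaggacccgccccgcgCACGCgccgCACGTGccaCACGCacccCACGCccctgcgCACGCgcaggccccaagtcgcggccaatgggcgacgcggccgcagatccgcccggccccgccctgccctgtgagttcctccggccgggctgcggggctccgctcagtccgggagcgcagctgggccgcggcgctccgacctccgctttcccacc

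The ADM window holds 1 core, which begins 101 bases before the start, and the PKM window 1 core, 13 bases after it. PGK1 holds 4 and BNIP3 holds 5, and 1 of the BNIP3 cores lies inside an E-box, CACGTG, whose letters overlap the core. Of the 33 members with an entry (VEGFA, BNIP3L, SLC2A3 and NDRG1 are named only), 24 hold at least 1 core, or 72.7%, against 48.4% of all 27305 promoters in the table. The first start listed was used for the 11 members with several starts. The E-box CACGTG was found in 5 of the 33 (7.43% of all promoters hold it), the interferon-gamma-activated motif TTCNNNGAA in 1 (7.88% of all) and the kappaB motif in 2 (5.72% of all), both strands searched. These are letter matches in a window of 300 bases and not binding sites. Both cores contain the letters CG, and the promoters of the table were not matched to the members by base content or expression. The difference in shares is therefore not a measure of HRE enrichment.

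The first question was how cytokines changed these genes. In inflamed against normal hIECs, ADM rose 6.20-fold and PKM, SLC16A3 and EPAS1 each rose a little over 2-fold in mean FPKM, while PFKP rose 1.78-fold and no other enzyme more than 1.55-fold. In all, 18 of the 35 tested members rose and 2 fell (limma, Benjamini-Hochberg adjusted p under 0.05 over all genes tested). Differences are given on the log2(FPKM + 1) scale unless a fold in mean FPKM is named. Cytokines called 56.2% of all genes tested, 25.9% as higher and 30.3% as lower. The median log2 difference was 0.21 over the members and -0.03 over all genes tested. The members were chosen with earlier results of these data known, so their contrast with all genes is a description only. The comparison with PM10 in both arms takes its group means from the other 4 libraries but shares the estimate of spread with the first. There 24 members rose and 4 fell against a background of 65.4% called, 25.8% higher and 39.6% lower. The median was 0.36 over the members and -0.11 over all genes. All 18 members that rose in the first comparison also rose in the second, and PFKM and ENO2 fell in both. Among all genes tested, 20.9% rose in both and 27.4% fell in both.

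**Figure D1:**
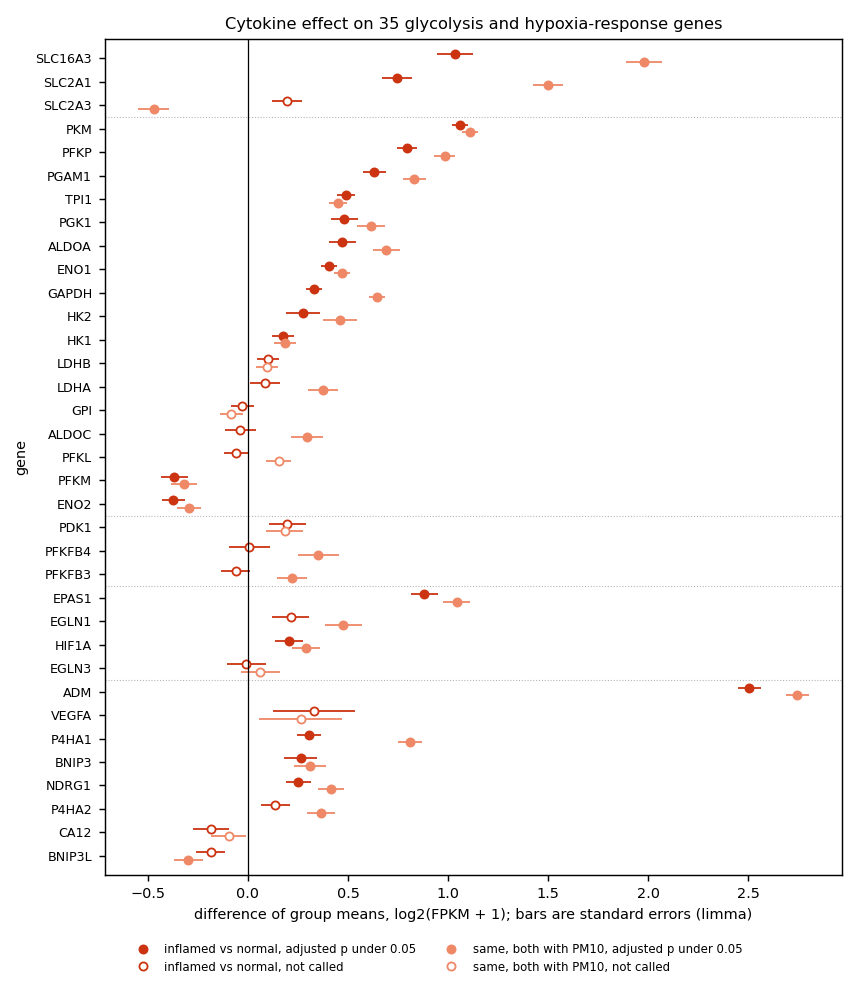
Differences between cytokine-treated and untreated hIECs for the 35 tested members on the log2(FPKM + 1) scale (x axis), without PM10 (red) and with PM10 in both arms (orange), ordered by role and by size (y axis; dotted lines part transporters, enzymes, flux regulators, oxygen-sensing genes and other hypoxia-response genes). Bars are limma standard errors, filled points have an adjusted p under 0.05, and ADM stands furthest right at 2.50 and 2.74 while PFKM and ENO2 lie left of 0 in both.

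The normal libraries were less alike than those of the other groups. The median SD of the members between the 2 libraries was 0.09 (log2) for normal hIECs and 0.03 in each of the other groups, and mitochondrial transcripts made up 17.02% and 24.2% of summed FPKM in the 2 normal libraries against 15.5% to 20.4% elsewhere. Without normal library 1 the first comparison called 23 members and 7753 of all 14206 genes, and without normal library 2 it called 16 members and 7224 genes. The 6 proliferation markers, led by PCNA, moved with the groups as well. They summed to 115 and 106 FPKM in normal hIECs, 90.0 and 85.3 with PM10, 182 and 178 with cytokines, and 162 and 159 with both, and all 6 rose in both cytokine comparisons. Of the 8 mesenchymal markers 2 rose and 4 fell with cytokines, and 3 rose and 5 fell with PM10 in both arms. The part of proliferation and of the epithelial, neuronal and mesenchymal markers in the results below was not tested. For mitochondrial transcripts, an alternative left those genes out and rescaled FPKM, and its counts are given below.

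Among the transporters, SLC2A1, the basal glucose carrier of most cells, and SLC16A3, a lactate exporter, rose with cytokines. SLC2A1 measured 13.9 and 11.99 FPKM in normal hIECs, 11.7 and 12.1 with PM10, 21.8 and 22.8 with cytokines, and 36.5 and 34.5 with both. Inflamed libraries were thus all above untreated ones, and the highest pair was inflamed with PM10. The log2 difference was 0.74 (SE 0.08, adjusted p = 0.000135) without PM10 and 1.5 (SE 0.08, adjusted p = 3.04e-06) with it.

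SLC16A3 measured 8.15 and 9.66 FPKM in normal hIECs, 6.11 and 6.08 with PM10, 17.9 and 20.7 with cytokines, and 26.9 and 27.0 with both. The 4 groups did not overlap, and the order was normal with PM10, normal, inflamed, inflamed with PM10. The difference was 1.03 (SE 0.09, adjusted p = 6.73e-05) without PM10 and 1.98 (SE 0.09, adjusted p = 2.01e-06) with it. SLC16A3 lies at chr17:82217934-82261129 on GRCh38, where its exons overlap those of CSNK1D, and reads were not strand-specific. CSNK1D was listed between 22.1 and 27.4 FPKM and differed between the cytokine groups by 0.03 (adjusted p = 0.69) and -0.05 (adjusted p = 0.40).

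SLC2A3, a high-affinity glucose carrier, behaved otherwise. It measured 18.98 and 17.2 FPKM in normal hIECs, 26.4 and 29.5 with PM10, 21.7 and 20.04 with cytokines, and 19.5 and 20.2 with both. The normal hIECs with PM10 stood above all other libraries. The cytokine difference was 0.20 (adjusted p = 0.0622) without PM10 and -0.47 (SE 0.08, adjusted p = 0.00115) with it. Its near-identical paralog SLC2A14, with which reads could be shared, was listed between 0.683 and 1.98 FPKM.

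FPKM are scaled to transcript length, so the 2 glucose carriers can be set side by side. SLC2A1 made up 42.3% and 41.0% of their sum in untreated hIECs, 30.7% and 29.1% with PM10, 50.1% and 53.3% with cytokines and 65.2% and 63.1% with both. SLC2A3 was thus the more abundant of the pair in every normal library and SLC2A1 in every inflamed one, although the margin in inflamed library 1 was small.

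**Figure D2:**
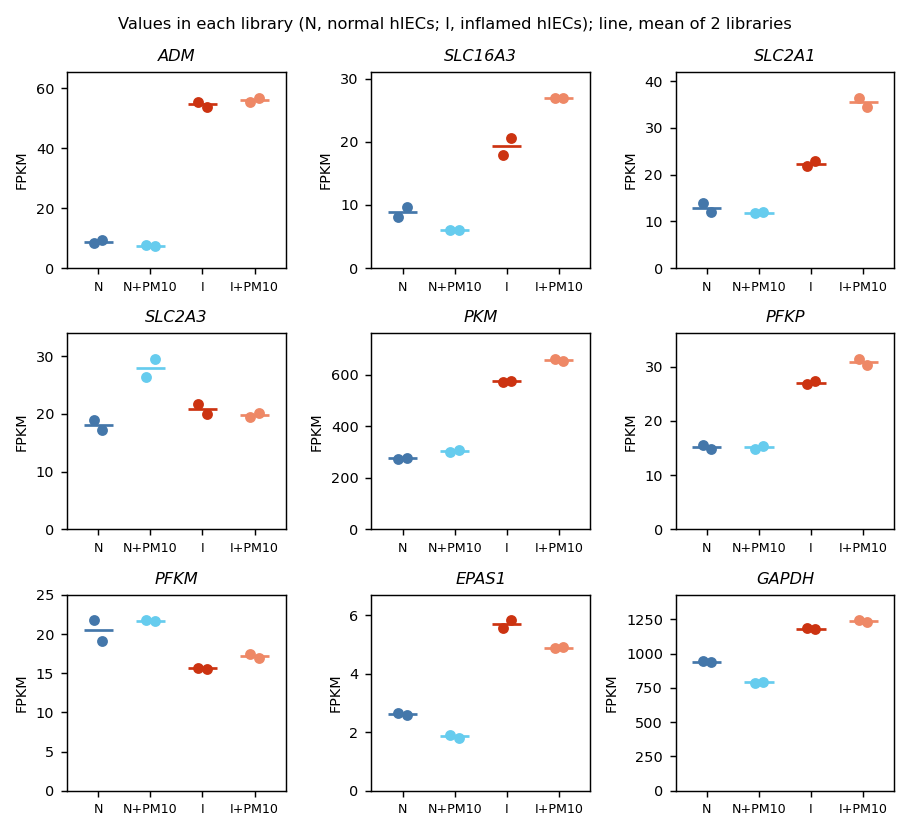
FPKM (y axes, linear from 0) of 9 members in each of the 8 libraries by group (x axes; N, normal hIECs; I, inflamed hIECs), with points for libraries and lines for the mean of 2. ADM, SLC16A3, SLC2A1, PKM, PFKP and EPAS1 are higher in all 4 inflamed libraries, PFKM is lower in them, and SLC2A3 is highest in normal hIECs with PM10.

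Of the 17 glycolytic enzymes, 10 rose, PFKM and ENO2 fell, and 5 did not pass the test in inflamed against normal hIECs, where 25.9% of all genes tested rose and 30.3% fell. Their summed level was 2674 and 2642 FPKM in normal hIECs, 2462 and 2451 with PM10, 3538 and 3564 with cytokines, and 3762 and 3677 with both. Without GAPDH, the most abundant of them, the 16 others summed to means of 1716, 1665, 2368 and 2484 FPKM in the same order. With PM10 in both arms 12 enzymes rose and 2 fell, against 25.8% and 39.6% of all genes tested.

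PKM, the pyruvate kinase of most non-hepatic tissues, had the largest rise among the enzymes. It measured 274 and 278 FPKM in normal hIECs, 300 and 309 with PM10, 573 and 578 with cytokines, and 663 and 653 with both. The groups did not overlap, and the log2 difference with cytokines was 1.06 (SE 0.04, adjusted p = 1.03e-06) without PM10 and 1.11 (SE 0.04, adjusted p = 6.04e-07) with it. FPKM per gene do not tell the PKM splice forms apart.

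The phosphofructokinase genes, which encode the enzyme of the main committed step, moved in different directions. PFKP, the platelet form, rose from 15.5 and 14.8 FPKM to 26.8 and 27.3 with cytokines, and measured 14.9 and 15.4 in normal and 31.4 and 30.3 in inflamed hIECs with PM10 (differences of 0.79 and 0.98, SE 0.05 each, adjusted p = 1.54e-05 and 3.86e-06). PFKM, the muscle form, fell from 21.8 and 19.1 FPKM to 15.7 and 15.5, and was 21.8 and 21.6 in normal and 17.4 and 16.96 in inflamed hIECs with PM10 (differences of -0.37 and -0.32, SE 0.07 each, adjusted p = 0.0024 and 0.00374). PFKL, the liver form, stayed between 23.5 and 27.6 FPKM and did not pass in either comparison (adjusted p = 0.46 and 0.0625). PFKP therefore went from 25.1% of the summed phosphofructokinase level in normal hIECs to 40.7% with cytokines, and from 24.9% to 41.3% with PM10 in both arms, while PFKM went from 33.8% to 23.4% and from 35.7% to 23.0%. The total of the 3 genes was 60.5 FPKM in normal and 66.5 FPKM in inflamed hIECs, and 60.7 and 74.7 FPKM with PM10 in both arms. PFKM exons overlap SENP1, which was listed at 3.40 to 4.55 FPKM and was higher with cytokines (0.25, adjusted p = 0.0115), the opposite direction.

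**Figure D3:**
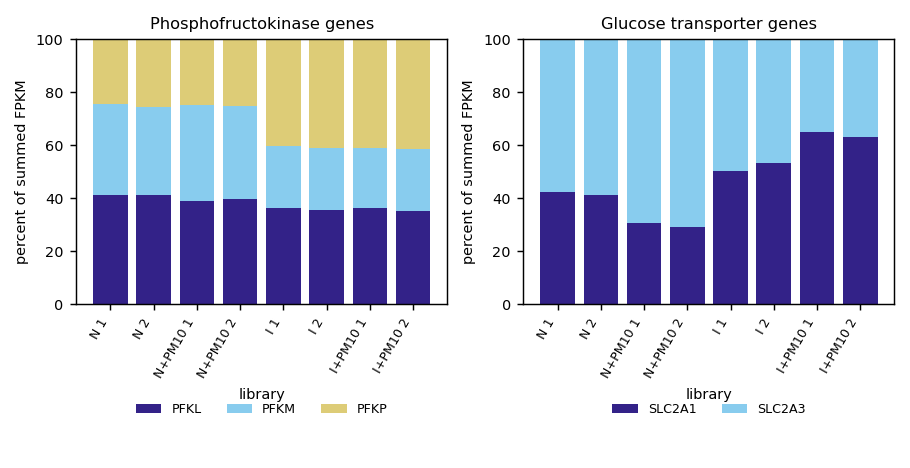
Share of each gene (y axes, percent of summed FPKM) in the phosphofructokinase genes (left) and in 2 glucose transporter genes (right) for each of the 8 libraries (x axes; N, normal; I, inflamed). PFKP takes 24.5% to 25.7% in the normal libraries and 40.2% to 41.5% in the inflamed ones, and SLC2A1 runs from 29.1% to 65.2%.

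Enolase, aldolase and hexokinase each had 1 dominant gene. ENO1, the common enolase, measured 270 and 268 FPKM in normal hIECs, 259 and 258 with PM10, 358 and 355 with cytokines, and 366 and 351 with both. It rose by 0.40 and 0.47 (SE 0.04 each, adjusted p = 0.000144 and 4.98e-05). ENO2, the enolase of neurons, fell from 8.21 and 8.71 to 6.18 and 6.43 FPKM with cytokines, and was 8.63 and 8.58 in normal and 6.89 and 6.76 in inflamed hIECs with PM10 (differences of -0.37 and -0.30, SE 0.06 each, adjusted p = 0.00129 and 0.00319). Neuronal markers fell beside it, 4 of the 5 tested in each comparison.

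Aldolase, which splits the 6-carbon sugar, was nearly all ALDOA. ALDOA measured 203 and 220 FPKM in normal hIECs, 169 and 184 with PM10, 282 and 304 with cytokines, and 292 and 279 with both, and rose by 0.47 and 0.69 (SE 0.07 each, adjusted p = 0.000679 and 7.19e-05). ALDOC ranged from 5.07 to 6.99 FPKM and passed with PM10 in both arms (0.29, adjusted p = 0.0123) but not without PM10 (-0.04, adjusted p = 0.695).

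Hexokinase, which traps glucose as its phosphate, was 93.4% to 95.9% HK1 in every library. HK1 measured 35.8 and 32.9 FPKM in normal hIECs, 38.8 and 40.9 with PM10, 38.9 and 38.9 with cytokines, and 45.5 and 45.2 with both (differences of 0.17 and 0.18, adjusted p = 0.0313 and 0.0215). HK2, the form usually named with hypoxia, was at 1.75 to 2.26 FPKM in the 4 normal and 2.64 to 2.85 in the 4 inflamed libraries (differences of 0.27 and 0.46, adjusted p = 0.0264 and 0.00218).

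LDHA and LDHB encode the subunits of lactate dehydrogenase, and LDHA made up 48.7% of their summed FPKM in normal hIECs, 43.5% with PM10, 48.5% with cytokines and 48.4% with both. LDHA measured 245 and 245 FPKM in normal hIECs, 223 and 187 with PM10, 257 and 262 with cytokines, and 266 and 264 with both. LDHA did not pass without PM10 (0.08, 95% interval -0.09 to 0.26, adjusted p = 0.38) and rose with PM10 in both arms (0.37, SE 0.08, adjusted p = 0.00357). LDHB ranged from 248 to 290 FPKM and passed in neither (0.10 and 0.09, adjusted p = 0.145 and 0.151).

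The remaining enzymes of the lower pathway rose together. PGAM1, a phosphoglycerate mutase, rose from a mean of 89.6 to 139 FPKM (0.63), TPI1, triosephosphate isomerase, from 185 to 260 (0.49) and PGK1, phosphoglycerate kinase, from 40.2 to 56.4 (0.48). Each also rose with PM10 in both arms, by 0.83, 0.45 and 0.61. GPI, which interconverts the hexose phosphates, stayed between 27.6 and 32.1 FPKM (-0.03 and -0.08, adjusted p = 0.69 and 0.24).

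GAPDH, the glyceraldehyde phosphate dehydrogenase, is described on its own because the study used it as the reference gene of its quantitative PCR. It measured 944 and 940 FPKM in normal hIECs, 787 and 794 with PM10, 1187 and 1179 with cytokines, and 1244 and 1227 with both. No 2 groups overlapped, and the pair within each group lay close together. Cytokines raised it by 0.33 (SE 0.04, adjusted p = 0.000351) without and 0.64 (SE 0.04, adjusted p = 8.23e-06) with PM10, and the first of these was 0.58 for GAPDH after quantile normalization. PM10 lowered it by 0.25 in normal hIECs (-0.25, SE 0.04, adjusted p = 0.0138, or -0.11 after quantile normalization, which did not pass) and did not pass in inflamed hIECs (0.06, 95% interval -0.03 to 0.16, adjusted p = 0.32). By arithmetic on the deposited FPKM, without quantile normalization, a gene of constant FPKM divided by GAPDH would change by -20.4% and -36.0% in the cytokine comparisons, by 19.2% with PM10 in normal hIECs and by -4.28% with PM10 in inflamed hIECs. An unnamed gene whose exons overlap GAPDH (ENSG00000269968) reached up to 39.6 FPKM.

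Among 14 reference genes in common use other than GAPDH, 5 rose and 3 fell with cytokines, and 6 rose and 4 fell with PM10 in both arms, with medians of 0.04 and -0.03. Over all genes tested 25.9% rose and 30.3% fell, and 25.8% and 39.6% with PM10, with medians of -0.03 and -0.11. B2M, a chain of the class I antigen-presenting complex, had the largest rise (3.18 and 3.02), and ACTB rose by 0.46 and 0.44. RPLP0 fell by 0.61 and 0.46 and RPL13A by 0.38 and 0.49, both ribosomal protein genes. TBP (-0.11 and -0.12) and SDHA (-0.05 and -0.02) passed in neither, nor in either PM10 comparison.

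The 3 flux regulators were at low levels. In inflamed against normal hIECs PDK1, a kinase that shuts pyruvate dehydrogenase, and PFKFB3 and PFKFB4, which set the level of the activator fructose bisphosphate, did not pass in limma (0 of 3, and 0 of 3 at an unadjusted p under 0.05, where 56.2% of all genes tested were called). PFKFB3 measured 6.496 and 5.80 FPKM in normal hIECs, 6.14 and 6.52 with PM10, 5.65 and 6.04 with cytokines, and 7.73 and 7.33 with both, and rose with cytokines with PM10 in both arms (0.22, SE 0.07, adjusted p = 0.0328). PFKFB4 was between 1.81 and 2.90 FPKM and rose there too (0.35, SE 0.10, adjusted p = 0.0175). PDK1 was between 0.904 and 1.49 FPKM, near the filter, and did not pass (0.18, adjusted p = 0.13).

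Of the oxygen-sensing genes, EPAS1 more than doubled with cytokines. It measured 2.67 and 2.61 FPKM in normal hIECs, 1.92 and 1.80 with PM10, 5.57 and 5.84 with cytokines, and 4.88 and 4.91 with both. The groups did not overlap, and the differences were 0.88 (SE 0.07, adjusted p = 3.16e-05) and 1.04 (SE 0.07, adjusted p = 9.24e-06). HIF1A measured 43.9 and 37.6 FPKM in normal hIECs, 46.9 and 45.8 with PM10, 46.8 and 47.2 with cytokines, and 57.3 and 56.5 with both. Its cytokine differences were smaller, 0.20 (SE 0.07, adjusted p = 0.0417) and 0.29 (SE 0.07, adjusted p = 0.00851), and the first of these calls was lost under 10 of the alternatives tried. EPAS1 thus stayed the minor alpha subunit transcript, at 6.10% of the pair in normal hIECs, 3.86% with PM10, 10.8% with cytokines and 7.92% with both. These are transcript levels, while the alpha subunits are known to be controlled mainly as proteins. EGLN1, the main oxygen-dependent hydroxylase, was between 4.83 and 7.70 FPKM and rose with PM10 in both arms (0.48, adjusted p = 0.00278) but did not pass without PM10 (0.21, adjusted p = 0.0831). EGLN3, a hydroxylase that is itself a hypoxia target, was between 3.77 and 5.05 FPKM and passed in neither (-0.01 and 0.06, adjusted p = 0.95 and 0.60).

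Among the 10 further hypoxia-response genes, ADM, which encodes the vasodilator peptide adrenomedullin, led all members. It measured 8.39 and 9.25 FPKM in normal hIECs, 7.59 and 7.48 with PM10, 55.5 and 53.8 with cytokines, and 55.4 and 56.9 with both. The inflamed libraries lay far above all normal ones and did not separate by PM10. The differences were 2.50 (SE 0.06, adjusted p = 8.88e-08) and 2.74 (SE 0.06, adjusted p = 4.00e-08), or 6.20-fold and 7.46-fold in mean FPKM.

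P4HA1 and P4HA2 encode collagen prolyl hydroxylases. P4HA1 measured 48.9 and 46.0 FPKM in normal hIECs, 37.3 and 34.1 with PM10, 60.1 and 57.5 with cytokines, and 63.3 and 63.0 with both, and rose by 0.30 and 0.81 (SE 0.06 each, adjusted p = 0.0038 and 2.01e-05). P4HA2 was between 30.8 and 43.9 FPKM and rose with PM10 in both arms (0.36, adjusted p = 0.00305) but did not pass without (0.14, adjusted p = 0.14). NDRG1, a stress-response gene, measured 13.3 and 12.3 FPKM in normal hIECs, 14.7 and 14.6 with PM10, 15.1 and 15.7 with cytokines, and 20.8 and 18.9 with both (0.25 and 0.41, adjusted p = 0.0123 and 0.000937).

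The mitophagy receptors BNIP3 and BNIP3L, both known HIF targets, moved apart with PM10 in both arms. BNIP3 was at 8.58 and 7.24 FPKM in normal hIECs, 6.93 and 7.17 with PM10, 9.87 and 9.47 with cytokines, and 9.21 and 8.75 with both (0.26 and 0.31, adjusted p = 0.0265 and 0.0116). BNIP3L was at 37.4 and 32.0, 36.1 and 34.9, 30.1 and 30.4, and 29.0 and 28.3 FPKM in the same order, and fell with PM10 in both arms (-0.30, SE 0.07, adjusted p = 0.00829) but did not pass without (-0.19, adjusted p = 0.0611). BNIP3L exons overlap PNMA2, at 2.93 to 6.91 FPKM, which was higher with cytokines.

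VEGFA, the vascular growth factor often read as a mark of HIF activity, was not called with all libraries. It measured 8.39 and 10.5 FPKM in normal hIECs, 10.9 and 11.4 with PM10, 15.6 and 9.25 with cytokines, and 13.03 and 14.2 with both. The 2 inflamed libraries differed more than any other pair of any member (SD 0.49 on the log2 scale), and the difference was 0.33 with a 95% interval from -0.15 to 0.81 (adjusted p = 0.21). For VEGFA this rested on single libraries, at 0.68 (adjusted p = 0.00661) without inflamed library 2 and -0.02 (adjusted p = 0.91) without inflamed library 1. CA12, a surface carbonic anhydrase, was between 0.916 and 1.62 FPKM and did not pass (-0.18 and -0.10, adjusted p = 0.11 and 0.36).

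Calls were also counted by the HRE core in the promoter window. Of the 22 tested members with a core, 12 rose and 1 fell with cytokines, and 17 rose and 1 fell with PM10 in both arms. Of the 9 without one, 5 rose and 1 fell, and 6 rose and 1 fell. Over all genes tested 25.9% rose and 30.3% fell with cytokines, and 25.8% and 39.6% with PM10 in both arms. Among the members that rose most with cytokines, ADM, PKM and EPAS1 hold a core, while SLC16A3 and PFKP are without one in the window of the first listed start. The SLC16A3 and PFKP windows begin downstream of the GENCODE gene starts, so a core near another start would be missed.

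Of 42 further hypoxia-response targets 40 were tested, and 14 rose and 12 fell with cytokines, with a median of 0.04, while 19 rose and 13 fell with PM10 in both arms, also with a median of 0.04. Over all genes tested the shares were 25.9% and 30.3% with a median of -0.03, and 25.8% and 39.6% with a median of -0.11, so the shares of the list without PM10 lay near those of all genes. ANGPTL4, an inhibitor of lipoprotein lipase, rose most, by 3.39 and 3.73, from 7.99 and 8.24 FPKM in normal to 93.7 and 96.0 in inflamed hIECs. PLOD2, a collagen lysyl hydroxylase, rose by 1.30 and 1.47, and BHLHE40, a circadian repressor, by 1.07 and 0.50. WSB1, a ubiquitin ligase adaptor, fell by 1.12 and 1.77, PPFIA4 by 1.08 and 1.69, ANKZF1 by 0.81 and 1.26 and ZNF395 by 0.65 and 0.85.

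**Figure D4:**
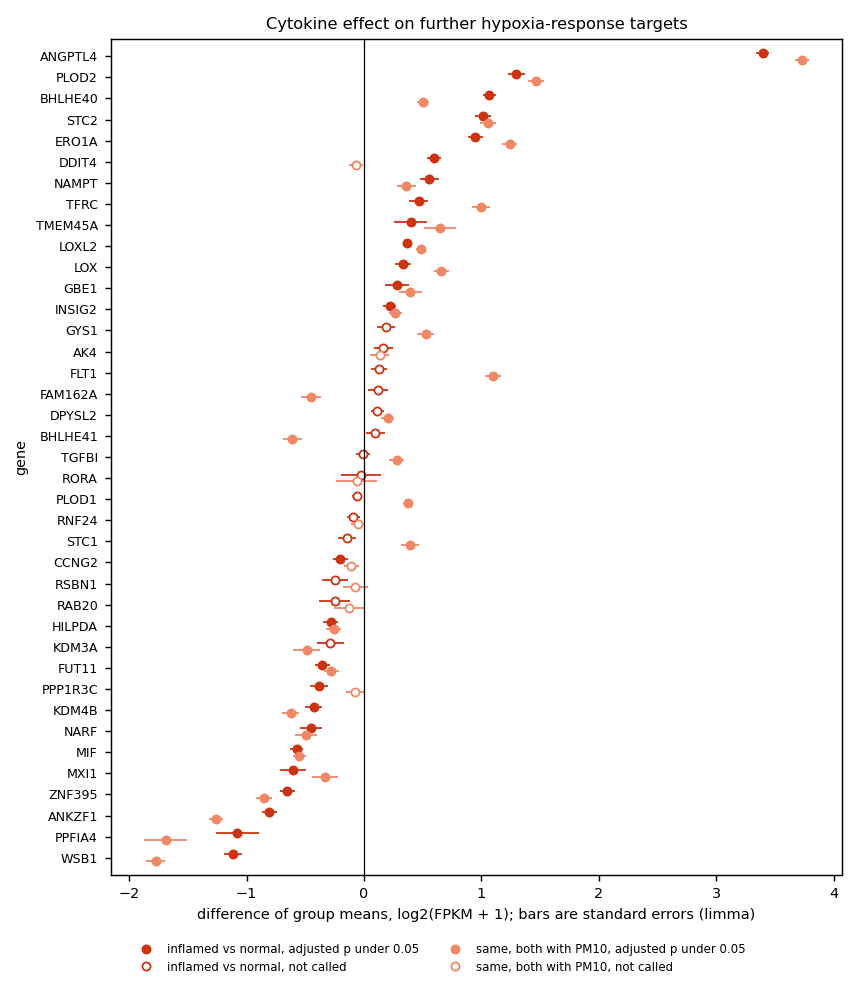
Differences with cytokines, without PM10 (red) and with PM10 in both arms (orange), for tested genes of a second list of hypoxia-response targets (y axis), on the log2(FPKM + 1) scale (x axis) with limma standard errors and filled points at an adjusted p under 0.05. The list runs from ANGPTL4 at 3.39 and 3.73 to WSB1 at -1.12 and -1.77.

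Of 16 other regulators of the HIF pathway, 4 rose and 4 fell with cytokines and 4 rose and 6 fell with PM10 in both arms, with medians of 0.10 and -0.03. These counts are near the shares of all genes tested, 25.9% and 30.3% without PM10 and 25.8% and 39.6% with it (medians of -0.03 and -0.11). CITED2, a HIF-induced competitor for the coactivator EP300, rose by 0.42 and 0.82. VHL, the ligase subunit that marks HIF alpha for degradation, rose by 0.31 (adjusted p = 0.0376) without PM10, and it did not pass with PM10 in both arms (-0.06). HIF3A, an inhibitory alpha subunit, fell from 5.57 and 7.38 FPKM to 2.16 and 2.50 (-1.16, and -1.10 with PM10 in both arms), and ELOB, RACK1 and RBX1, which take part in HIF alpha turnover, fell by 0.72, 0.69 and 0.40. ARNT, the partner of the alpha subunits, did not pass without PM10 (-0.19) and fell with it (-0.33).

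The second question was what PM10 did in normal and in inflamed hIECs. In normal hIECs SLC2A3 rose 1.54-fold, and SLC16A3, P4HA1, EPAS1 and GAPDH fell, 5 of the 35 members in all. PM10 called 9.23% of all genes tested there, 5.51% higher and 3.72% lower, and the median was -0.05 over the members and 0.06 over all genes. In inflamed hIECs 8 members rose and 0 fell (2 were lower at an unadjusted p under 0.05 in limma), against 15.2% of all genes called, 6.22% higher and 9.02% lower, with medians of 0.10 and -0.01. The comparisons share no library in their group means, but they share the estimate of spread. Each also shares its libraries with the cytokine comparisons above.

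SLC2A3 differed by 0.60 with PM10 in normal hIECs (SE 0.08, adjusted p = 0.00689) and by -0.07 in inflamed hIECs (adjusted p = 0.58). SLC16A3 fell by 0.48 in normal hIECs (SE 0.09, adjusted p = 0.0242) and rose by 0.47 in inflamed hIECs (SE 0.09, adjusted p = 0.0166). CSNK1D, whose exons it overlaps, was higher with PM10 in both (0.28 and 0.20, adjusted p = 0.0213 and 0.0392). P4HA1 fell by 0.40 (SE 0.06, adjusted p = 0.0112) and EPAS1 by 0.35 (SE 0.07, adjusted p = 0.0244) in normal hIECs. These calls were lost under 8 of 17 alternatives for EPAS1, 6 for SLC16A3, 4 for GAPDH and 2 each for SLC2A3 and P4HA1. The proliferation markers were lower beside them, 4 of 6. Of the 40 tested genes of the second target list 4 rose and 5 fell with PM10 in normal hIECs, against 5.51% and 3.72% of all genes. PPP1R3C, a glycogen targeting subunit, rose by 0.54 and BHLHE40 by 0.51, and LOX and FLT1 fell by 0.54 and 0.95.

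SLC2A1 rose 1.59-fold with PM10 in inflamed hIECs (0.65, SE 0.08, adjusted p = 0.00242), the largest PM10 effect on a member there. NDRG1 rose by 0.34 (SE 0.06, adjusted p = 0.0145) and PFKFB3 by 0.32 (SE 0.07, adjusted p = 0.0306). HIF1A, PGAM1, HK1 and PKM rose by 0.27, 0.22, 0.22 and 0.19 (adjusted p = 0.0437, 0.0401, 0.0404 and 0.0225). These 4 calls were lost under 8, 8, 9 and 5 of 17 alternatives, those of PFKFB3, NDRG1 and SLC16A3 under 6, 3 and 3, and that of SLC2A1 under 0. In the second target list 8 of 40 rose and 3 fell, against 6.22% and 9.02% of all genes. PPP1R3C rose by 0.85 and STC1 by 0.56, and WSB1 and DDIT4 fell by 0.67 and 0.63. Of the 8 mesenchymal markers 6 fell and 1 rose beside them, and their sum was 3285 and 3318 FPKM in inflamed hIECs against 2621 and 2573 with PM10 added. Their part in these results was not tested.

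**Figure D5:**
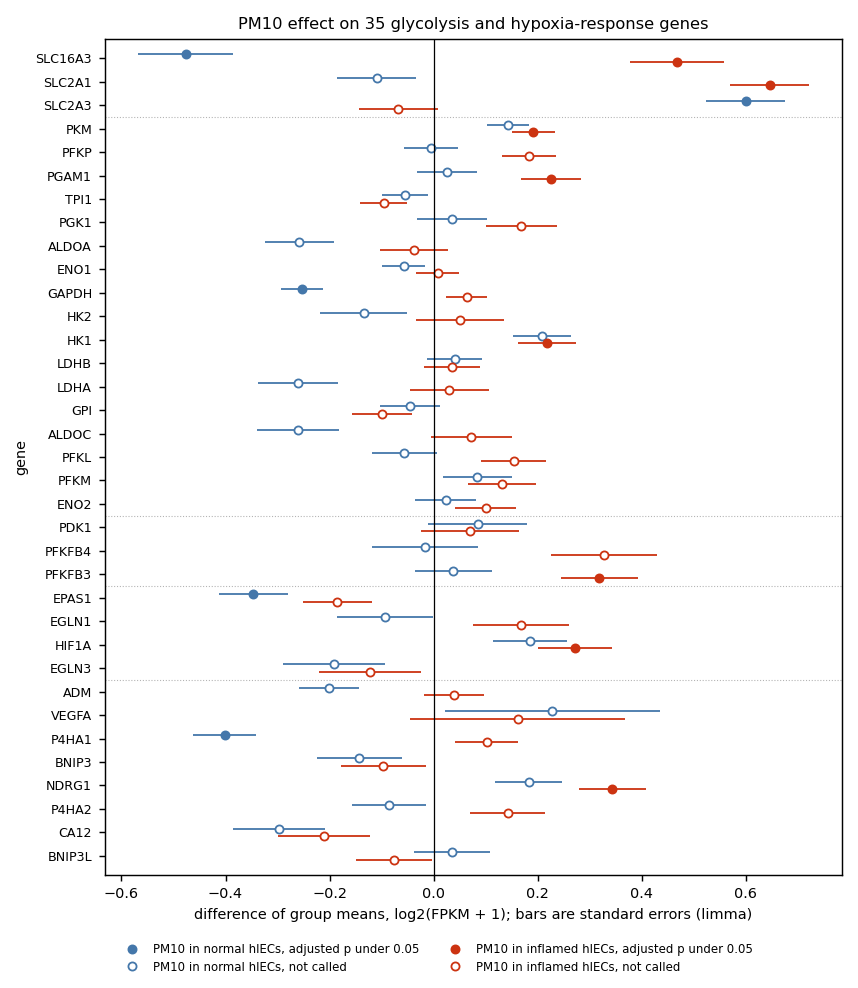
Differences with PM10 in normal (blue) and inflamed (red) hIECs for the 35 tested members (y axis, ordered by role as in the plot of cytokine effects) on the log2(FPKM + 1) scale (x axis), with limma standard errors and filled points at an adjusted p under 0.05. SLC16A3 lies at -0.48 and 0.47, SLC2A1 at -0.11 and 0.65, and SLC2A3 at 0.60 and -0.07.

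Whether the PM10 effect differed between inflamed and normal hIECs was tested as an interaction, which called 5 members against 6.6% of all genes (2.11% higher and 4.48% lower). SLC16A3 had the largest difference between the 2 effects (0.94, SE 0.13, adjusted p = 0.00921), followed by SLC2A1 (0.76, SE 0.11, adjusted p = 0.0102), P4HA1 (0.50, SE 0.08, adjusted p = 0.0193) and GAPDH (0.32, SE 0.06, adjusted p = 0.0238), each higher in inflamed hIECs, while SLC2A3 went the other way (-0.67, SE 0.11, adjusted p = 0.0169). All 3 transporters were thus among the 5. In the same interaction 1 of the 8 mesenchymal markers was higher and 5 were lower (median -0.33), and 2 of the 6 proliferation markers were higher (median 0.33), and their part in these calls was not tested. The call was lost under 8 of 16 alternatives for GAPDH, whose interaction ran from 0.14 to 0.36, under 5 for P4HA1, 4 for SLC2A3 and 3 for SLC2A1, and under 0 for SLC16A3.

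The number of members called with PM10 changed with single libraries, as did the number of all 14206 genes called. In normal hIECs, 12 members and 2627 genes passed without normal library 1, and 3 members and 725 genes without normal library 2. Without library 1 of normal hIECs with PM10 3 members and 194 genes passed, and without library 2 of that group 0 members and 221 genes. Leaving out either library of inflamed hIECs with PM10, which enter there only through the shared spread, gave 3 members each time, with 639 and 636 genes. In inflamed hIECs 1 member and 675 genes passed without inflamed library 1, 2 and 692 without inflamed library 2, and 1 and 734 or 2 and 742 without library 1 or 2 of inflamed hIECs with PM10. Without library 1 or 2 of normal hIECs with PM10, 4 members passed each time, with 1543 and 1536 genes. For the interaction, 6 members passed without either normal library, with 1266 and 1026 genes. It called 4 members and 263 genes or 2 and 289 without library 1 or 2 of normal hIECs with PM10, 1 and 274 or 3 and 285 without inflamed library 1 or 2, and 1 and 296 or 2 and 330 without library 1 or 2 of inflamed hIECs with PM10. Of all genes called with PM10 in normal hIECs 59.7% were higher, and this was 42.9% after median centring, 49.8% after quantile normalization and 74.9% without mitochondrial genes. For the members called there, 1 of 5 was higher as deposited, 2 of 5 after quantile normalization and 3 of 7 (42.9%) without mitochondrial genes.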

How the data were processed

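The 8 processed files hold FPKM (fragments scaled to transcript length and library size) for each gene, 1 file per library, as the authors deposited them. The authors trimmed poly-A selected, non-strand-specific paired reads with Cutadapt and Sickle, aligned them to hg38 (GRCh38) with HISAT2 and computed FPKM with StringTie; the annotation release was not given in the sources used here. Depth is not given with FPKM, so no counting intervals were computed. The lowest value above 0 in a library lay between 0.164 and 0.228 FPKM.

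Values were tested as log2(FPKM + 1) with limma 3.58.1 in R 4.3.3, with a mean for each group, a trend in the prior variance and all 8 libraries in the fit, so that the groups share an estimate of spread. A gene entered if 2 or more libraries reached 1 FPKM (14206 did), and p-values were adjusted by Benjamini-Hochberg within each comparison. Fold changes on this scale understate those of low genes. On simulated data for the first comparison over 14206 genes, 56 of 100 genes changed by 0.5 and 81 of 100 changed by 1 (log2) were recovered. Of the calls, 3.52% were unchanged genes. Only these genes were simulated as changed, whereas 56.2% of all genes tested were called in the real comparison. The simulated shares therefore need not hold for the real data.

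The members and lists were chosen with earlier results of these data known. The 37 members may all be named. Values in each library were given for up to 6 members per direction with the largest called cytokine differences, up to 4 per direction with PM10, those called in the interaction, GAPDH, HIF1A, EPAS1 and isozyme partners. From each further list up to 4 called genes per direction and comparison are named; ARNT, TBP and SDHA were named after their values were seen. Members that did not pass, and the remaining members of a role, are given by range or mean, except VEGFA, which did not pass and is given by library. Lists were described by counts and medians beside all genes, with no test. Alternatives were the pseudocount, the filter, 3 scalings, the groups in the fit, the trend, a replicate block and leaving out each library. Exon overlaps came from GENCODE 44, where 99.5% of gene IDs matched, and promoters from RefSeq. All value columns of the files were used. Some genes of the further lists are not reported here by name.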

Additional observations from a re-analysis of the deposited data

Results flagged for a closer look

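The effect of PM10 differed between inflamed and normal hIECs in 5 members, by the interaction term of the limma fit over all genes (n = 2 libraries a group, adjusted p under 0.05). For SLC16A3 the interaction was 0.94 (log2), lower with PM10 in both normal libraries and higher in both inflamed ones than in any library of the matching group without PM10. SLC2A1 had 0.76, with 36.5 and 34.5 FPKM in inflamed hIECs with PM10 against at most 22.8 in the other libraries. P4HA1 had 0.50, with its lowest values, 37.3 and 34.1 FPKM, in normal hIECs with PM10. GAPDH had 0.32, with 787 and 794 FPKM in normal hIECs with PM10 against at least 940 elsewhere, and its call was lost under 8 of 16 alternatives, with values from 0.14 to 0.36. SLC2A3 had -0.67, with 26.4 and 29.5 FPKM in normal hIECs with PM10 against at most 21.7 elsewhere. Beside them, 1 of 8 mesenchymal markers had a higher and 5 a lower interaction, and 2 of 6 proliferation markers a higher one, and their part was not tested.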

How the results depend on the processing

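No member's called difference reversed under any alternative, and of 66 called member differences 40 stayed called in all of those run: 15 of 20 with cytokines, 23 of 28 with cytokines and PM10 in both arms, 0 of 5 with PM10 in normal hIECs, 1 of 8 with PM10 in inflamed hIECs (SLC2A1) and 1 of 5 for the interaction (SLC16A3). Some cytokine calls were lost, and the number of alternatives that ended each is given in brackets. They were HK1 (7), HK2 (4), HIF1A (10), BNIP3 (4) and NDRG1 (2) without PM10. With PM10 in both arms they were HK1 (3), PFKFB3 (4), PFKFB4 (3), ALDOC (2) and BNIP3 (2). With PM10 in normal hIECs, the 1311 genes called became 2050 when mitochondrial genes were left out and FPKM rescaled, and 23 when the fit held the compared groups alone, where the 5 members became 0. With PM10 in inflamed hIECs the 8 members became 5 with no minimum FPKM and 4 without the trend. For the interaction no such narrower fit exists, since it uses all groups. GAPDH lost its call with PM10 in normal hIECs (-0.11) and for the interaction (0.14) under quantile normalization, and the latter also without the trend and in 6 of the fits that left out a library. The cause of the other changes was not tested.

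Leaving out each library in turn, with the remaining library of its group assumed to vary like the others, gave 194 to 2627 genes and 0 to 12 members with PM10 in normal hIECs, 675 to 2992 genes and 1 to 10 members with PM10 in inflamed hIECs, 263 to 1266 genes and 1 to 6 members for the interaction, and a members' median with cytokines of 0.14 to 0.30. Members called with cytokines ranged from 16 to 23, and with PM10 in both arms from 23 to 30. Among all genes called with PM10 in inflamed hIECs, 40.8% were higher, and 50.8% after quantile normalization. For the interaction this was 32.0%, against 45.7% after median centring and 46.6% after quantile normalization. No scaling moved the median of all genes by more than 0.087. Single members could move more, such as GAPDH with cytokines, from 0.33 to 0.58 after quantile normalization.

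Groups share replicate numbers in the labels, but deviations of same-numbered libraries from their group means correlated at -0.0015 to 0.079 across genes and gave no sign of pairing; no label says whether same-numbered libraries share a culture or day. With the number as a replicate block the members called were 20, 28, 5, 7 and 5, with HK1 lost for PM10 in inflamed hIECs. FPKM without depth limit what can be said of genes near the filter, such as PDK1, CA12 and ANKRD37.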

Other observations

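Over all genes tested 25.9% rose and 30.3% fell with cytokines (median -0.03), and 25.8% rose and 39.6% fell with PM10 in both arms (median -0.11), and the counts below are to be read against these shares. Of 7 pentose phosphate genes, 3 rose with cytokines, among them PGD, a dehydrogenase of the oxidative branch, by 0.37 and RPE, an epimerase, by 0.58, and both also rose with PM10 in both arms (0.40 and 0.64). PGLS, the lactonase of the oxidative branch (matched by its Ensembl ID), fell by 0.56 and 0.62. With PM10 the limma fit called 0 of the 7 in normal and 0 in inflamed hIECs, where 0 and 2 had an unadjusted p under 0.05 and 9.23% and 15.2% of all genes tested were called. The medians of the 7 were 0.06 with cytokines and 0.15 with PM10 in both arms. Of 7 tested sugar transporters beyond the members 4 rose and 3 fell in each of the cytokine comparisons, with medians of 0.35 and 0.44. SLC2A6, a lysosomal hexose transporter, rose from 4.46 and 3.73 FPKM to 7.44 and 7.87, and reached 12.5 and 11.4 with PM10 in inflamed hIECs against 3.85 and 4.28 with PM10 in normal hIECs (interaction 0.59). SLC2A8 and SLC2A11 fell by 0.88 and 0.56. SLC2A2, SLC2A5 and SLC5A1, the main sugar carriers of the small intestine, were listed at 0 in all 8 libraries.

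Of 26 other tested genes of glycolysis, gluconeogenesis and pyruvate use, 9 rose and 8 fell with cytokines, and 11 rose and 11 fell with PM10 in both arms, with medians of 0.08 and 0.07, near the shares of all genes without PM10. PDK4, a starvation-induced kinase of pyruvate dehydrogenase, was at 1.10 and 1.03 FPKM in normal hIECs and 2.06 and 1.98 with PM10, and was listed at 0 in all 4 inflamed libraries. DLAT, the acetyltransferase core of pyruvate dehydrogenase, was at 6.14 and 6.61 FPKM in normal, 5.83 and 6.20 with PM10, 8.81 and 7.86 in inflamed hIECs and 11.6 and 12.8 with both (interaction 0.57). PC, which carboxylates pyruvate, fell by 0.62 and 0.97 with cytokines, and PFKFB2 by 0.64 and 0.82. TIGAR, a fructose bisphosphatase, rose by 0.50 and 0.63, and BPGM, which makes bisphosphoglycerate, by 0.40 and 0.78.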
